A study of Mus musculus with 8 samples.

Results

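The genes described here were listed together as genes of lymphocyte egress from a tissue and retention in it. They are the sphingosine 1-phosphate (S1P) receptor genes S1pr1, S1pr4 and S1pr5 and the transcription factor genes Klf2 and Klf3. The others are the retention genes Cd69 and Rgs1, Rgs2 of the same family as Rgs1, and the oxysterol receptor gene Gpr183. All 9 were chosen by symbol and found among the 34745 genes of the deposited table, and 8 of them had enough counts to be tested. S1pr5 was the exception. Their RNA was compared between 3 lymphoid progenitor populations sorted from mouse fetal liver, ILC1/3P (n = 2 libraries), ILCP (n = 3) and CLP (n = 3).

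CLP is the field's short name for common lymphoid progenitors and ILCP for innate lymphoid cell progenitors. ILC1/3P were sorted as α4β7+ cells that carried CD94 and lacked Flt3 and PD-1. ILCP were also α4β7+ and Flt3–, but PD-1+ and CD94–. CLP were Flt3+. The 3 gates shared the absence of lineage markers and of CD25 and the presence of CD45 and CD127. All mice were wild-type B6 and untreated. The labels also carry 6 to 8 weeks as an age, at odds with a fetal organ. They do not say whether the libraries came from separate animals or from pools, and the p-values therefore cover nothing but library-to-library spread, which may be technical. Total counts ran from 6310739 to 8082476 in ILC1/3P, from 6043940 to 6905448 in ILCP and from 4991939 to 7167619 in CLP. Of the 8 genes checked for the gates, 3 separated the groups as sorted. Klrd1, which encodes CD94, had 1184 and 1629 CPM (counts scaled to a common library size with TMM factors) in ILC1/3P, 19.1 to 71.5 CPM in ILCP and 40.8 to 65.5 CPM in CLP. Pdcd1, which encodes PD-1, had 10.2 and 17.5 CPM in ILC1/3P, 44.6 to 107 CPM in ILCP and 0 in every CLP library, and Flt3 had 0 in both ILC1/3P libraries, 0 to 1.28 CPM in ILCP and 401 to 570 CPM in CLP. Itgb7, the β7 chain, had 39.1 and 65.9 CPM for ILC1/3P, 28.3 to 113 for ILCP and 0.736 to 8.27 for CLP. Itga4, the α4 chain of the same integrin, was lowest in ILC1/3P (169 and 100 CPM, against 417 to 490 in ILCP and 302 to 412 in CLP), and so was Il7r, which encodes CD127 (215 and 214 CPM, against 461 to 501 and 380 to 526). Ptprc (CD45) had at least 188 CPM and Il2ra (CD25) at most 9.26 CPM in every library.

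As background, S1P is abundant in blood and lymph and scarce inside tissues, and lymphocytes that carry S1P receptors follow this gradient out. Klf2 switches on S1pr1 in mouse T cells, whereas the CD69 protein binds the S1PR1 protein and takes it off the cell surface. RGS proteins shorten G protein signals downstream of chemokine and S1P receptors, and GPR183 steers cells along gradients of oxysterols.

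ILC1/3P combined the lowest S1pr1 with the highest Rgs1, Rgs2, Cd69 and Gpr183 in CPM. The rise of Cd69 over CLP was fragile and depended on the scaling and on single libraries. S1pr1 was 5.24-fold lower and Rgs1 6.62-fold higher in ILC1/3P than in CLP, while neither passed the threshold between ILCP and CLP. ILCP instead had the lowest Cd69, 4.41-fold below CLP. Klf2 RNA did not pass the threshold in any of the 3 comparisons. These are bulk samples, so fewer cells that carry a transcript and less of it per cell cannot be told apart.

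**Figure D1:**
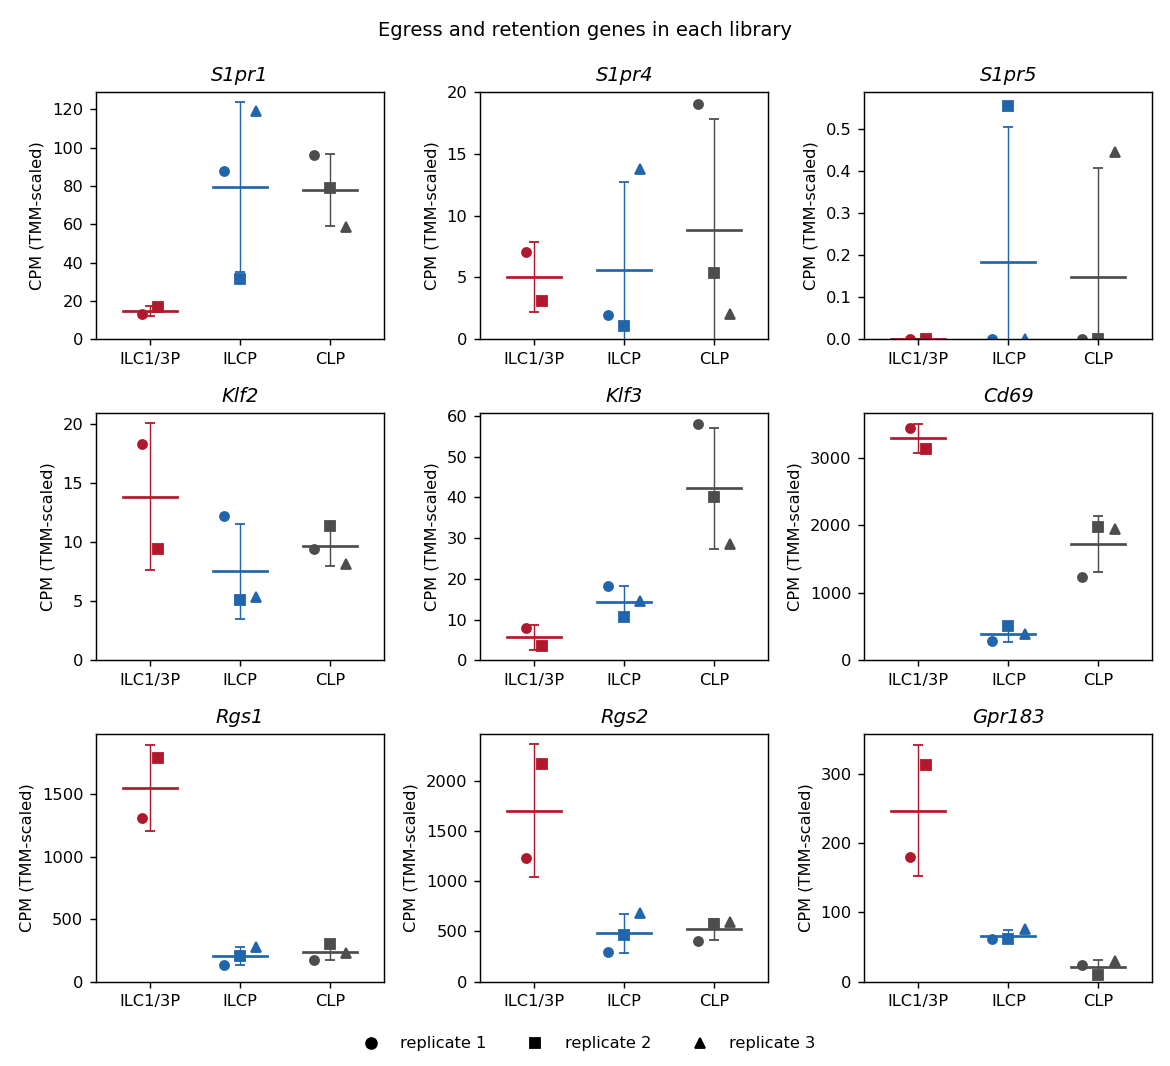
Level of each of the 9 genes in every library, in CPM on linear axes from 0 that differ between panels. Points are libraries (shape gives the replicate number), horizontal lines group means and bars the SD. The ILC1/3P libraries sit below all others for S1pr1 and Klf3 and above all others for Cd69, Rgs1, Rgs2 and Gpr183.

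S1pr1 (ENSMUSG00000045092, chromosome 3, 115710433 to 115715072 on mm10) encodes the receptor that lymphocytes use to leave lymphoid organs. It had 13.0 and 16.8 CPM in the ILC1/3P libraries, 87.7, 31.6 and 119 CPM in the ILCP libraries and 96.4, 79.1 and 58.4 CPM in the CLP libraries. Both ILC1/3P libraries lay below every other library, whereas ILCP and CLP overlapped and ILCP replicate 2 had less than the other ILCP libraries. S1pr1 fell in ILC1/3P against CLP (log2 fold change -2.39 ± 0.54, SE, edgeR adjusted p = 0.00743) and against ILCP (-2.42 ± 0.54, edgeR adjusted p = 0.0108). Leaving out ILC1/3P replicate 1 ended the second call (-2.24, adjusted p = 0.0564). Between ILCP and CLP the difference was 0.03 ± 0.43 (adjusted p = 0.99), an estimate whose sign depended on the scaling and on single libraries.

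The other S1P receptors were scarce. S1pr4 (ENSMUSG00000044199, chromosome 10, 81497745 to 81500132), whose product is found mainly on lymphoid and myeloid cells, had 7.07 and 3.07 CPM for ILC1/3P, 1.99, 1.11 and 13.8 for ILCP and 19.0, 5.34 and 2.08 for CLP. The 3 populations overlapped, and 1 library each of ILCP and CLP stood well above the rest of its group. No comparison of S1pr4 passed the threshold (edgeR adjusted p = 0.71 and 0.868 for ILC1/3P and ILCP set against CLP, and 0.97 between ILC1/3P and ILCP), and the sign of each difference turned when single libraries were left out. S1pr5 (ENSMUSG00000045087, chromosome 9, 21242912 to 21248443), the receptor that takes natural killer cells out of bone marrow in mice, had 0 counts in both ILC1/3P libraries, 4 counts in all ILCP libraries together and 3 counts in all CLP libraries together. It was too scarce to be tested. The 0 of ILC1/3P allows a level of up to 0.291 CPM over that group, by counting error alone. S1pr2 and S1pr3, the remaining tested receptors of the family, averaged 4.87 ± 0.137 and 2.41 ± 2.94 CPM for ILC1/3P, 7.57 ± 8.77 and 1.07 ± 0.945 for ILCP and 6.21 ± 8.59 and 1.62 ± 2.81 for CLP, and 0 were called in any comparison by edgeR, by DESeq2 or at an unadjusted p under 0.05.

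Klf2 (ENSMUSG00000055148, chromosome 8, 72319033 to 72321656), the zinc-finger activator of the egress program, had 18.3 and 9.45 CPM for ILC1/3P, 12.2, 5.11 and 5.35 for ILCP and 9.41, 11.4 and 8.15 for CLP. The 3 groups overlapped. Its log2 fold change was 0.52 ± 0.76 in ILC1/3P against CLP (adjusted p = 0.668), -0.35 ± 0.69 in ILCP against CLP (adjusted p = 0.885) and 0.87 ± 0.76 in ILC1/3P against ILCP (adjusted p = 0.481). The first of these turned to -0.12 with library size as the only scaling. The standard errors are wide, so these values do not show equal levels. Klf2 RNA thus had no called difference in the comparisons in which S1pr1 RNA fell.

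Klf3 (ENSMUSG00000029178, chromosome 5, 64803388 to 64832901) encodes a related factor that mostly represses and binds the same CACCC boxes. It had 7.90 and 3.55 CPM for ILC1/3P, 18.3, 10.6 and 14.5 for ILCP and 58.0, 40.1 and 28.5 for CLP. No library of one group reached into another, and ILCP lay between the other populations. Klf3 fell in ILC1/3P against CLP (-2.87 ± 0.62, edgeR adjusted p = 0.00605). The differences of ILCP against CLP (-1.54 ± 0.50, adjusted p = 0.0968) and of ILC1/3P against ILCP (-1.33 ± 0.58, adjusted p = 0.153) were not called by edgeR, although DESeq2 called the first (-1.55, adjusted p = 0.017). Exons of Klf3 overlap the antisense gene Gm20033, which had 0.493 to 0.709 CPM for ILC1/3P, 1.13 to 1.80 for ILCP and 1.63 to 3.74 for CLP, and because strand use is not given in the sources used here, reads in the overlap cannot be assigned.

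The promoter windows of the Klf genes and of the called genes Rgs2 and Gpr183 are printed to show where the CACCC box, the core element bound by KLF factors, lies in them. They run from 250 bases before to 50 bases after the annotated start (RefSeq, GRCm38.p6, matched by symbol for 6 of the 9 genes), 5′ to 3′ on the gene's strand, with CACCC and its reverse complement GGGTG in capitals.
Klf2 promoter, chr8:72318812-72319111 (plus strand): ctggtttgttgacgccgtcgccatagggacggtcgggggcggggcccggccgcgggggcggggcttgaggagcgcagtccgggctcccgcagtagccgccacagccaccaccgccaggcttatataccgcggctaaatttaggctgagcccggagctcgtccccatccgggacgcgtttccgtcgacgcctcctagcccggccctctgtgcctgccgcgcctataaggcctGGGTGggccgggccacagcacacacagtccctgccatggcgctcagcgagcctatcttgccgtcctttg
Klf3 promoter, chr5:64803271-64803570 (plus strand): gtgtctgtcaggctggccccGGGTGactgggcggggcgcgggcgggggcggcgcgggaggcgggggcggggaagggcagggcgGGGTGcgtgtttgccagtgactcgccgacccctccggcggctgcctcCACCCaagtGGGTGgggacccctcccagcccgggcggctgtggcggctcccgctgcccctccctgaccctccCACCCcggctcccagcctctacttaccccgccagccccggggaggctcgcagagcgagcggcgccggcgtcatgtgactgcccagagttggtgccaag
Rgs2 promoter, chr1:144004100-144004399 (minus strand): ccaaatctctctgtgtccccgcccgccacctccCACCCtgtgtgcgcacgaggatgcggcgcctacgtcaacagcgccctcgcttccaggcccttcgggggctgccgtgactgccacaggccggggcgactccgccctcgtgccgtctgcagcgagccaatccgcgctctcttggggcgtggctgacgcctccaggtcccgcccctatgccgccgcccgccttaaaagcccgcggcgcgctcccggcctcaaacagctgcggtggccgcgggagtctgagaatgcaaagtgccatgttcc
Gpr183 promoter, chr14:121965144-121965443 (minus strand): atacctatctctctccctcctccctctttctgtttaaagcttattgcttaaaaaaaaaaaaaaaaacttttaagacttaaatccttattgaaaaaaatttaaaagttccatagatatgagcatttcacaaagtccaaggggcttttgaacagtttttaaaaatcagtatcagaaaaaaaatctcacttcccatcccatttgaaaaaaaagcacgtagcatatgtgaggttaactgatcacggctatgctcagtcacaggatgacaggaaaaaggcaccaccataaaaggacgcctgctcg
The Klf3 window held 5 matches, the Klf2 and Rgs2 windows 1 each, and the Gpr183 window 0. Of all 32851 windows of this length, 57.5% held at least 1 match and 1.02% held 5 or more, so a single match is common. The S1pr4 and S1pr5 windows, not printed, held 1 and 2. A match describes letters and not binding.

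Cd69 (ENSMUSG00000030156, chromosome 6, 129267325 to 129275436), the C-type lectin that removes S1PR1 from the surface, separated all 3 populations in TMM-scaled CPM. It had 3442 and 3134 CPM for ILC1/3P, 283, 503 and 386 for ILCP and 1242, 1976 and 1953 for CLP, with no overlap between any groups. On the deposited FPKM, ILC1/3P (342 and 277) overlapped CLP (202, 284 and 280). Cd69 rose 8.42-fold in ILC1/3P against ILCP (3.07 ± 0.30, edgeR adjusted p = 0.00019) and fell in ILCP against CLP (-2.14 ± 0.28, edgeR adjusted p = 0.000481). Both calls held without any single library. The difference of ILC1/3P from CLP was smaller (0.93 ± 0.29, adjusted p = 0.0378) and fragile. It was lost with library size as the only scaling (0.28, adjusted p = 0.425) and on the deposited FPKM with limma (0.29, adjusted p = 0.428). It was also lost without CLP replicate 1 (adjusted p = 0.0923), 2 (0.0669) or 3 (0.0627), without ILCP replicate 3 (0.0652), and without ILC1/3P replicate 1 (0.128) or 2 (0.0857).

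Rgs1 and Rgs2 encode GTPase-activating proteins of the same family, and RGS1 is known for damping chemokine receptor and S1P receptor signals in lymphocytes. Rgs1 (ENSMUSG00000026358, chromosome 1, 144242296 to 144249242) had 1307 and 1794 CPM for ILC1/3P, 130, 203 and 281 for ILCP and 177, 299 and 227 for CLP. Rgs2 (ENSMUSG00000026360, chromosome 1, 143999338 to 144004161), whose product acts mainly on Gq-coupled signals, had 1236 and 2170 CPM for ILC1/3P, 293, 462 and 687 for ILCP and 403, 573 and 594 for CLP. For both genes the ILC1/3P libraries lay above every other library, and ILCP and CLP overlapped. Rgs1 rose 6.62-fold in ILC1/3P against CLP (2.73 ± 0.34, edgeR adjusted p = 0.000207) and 7.57-fold against ILCP (2.92 ± 0.34, adjusted p = 0.000453). Rgs2 rose 3.26-fold against CLP (1.70 ± 0.36, edgeR adjusted p = 0.00527) and 3.54-fold against ILCP (1.83 ± 0.36, adjusted p = 0.00607). Leaving out ILC1/3P replicate 2 ended both Rgs2 calls (1.24, adjusted p = 0.0584 relative to CLP, and 1.37, adjusted p = 0.0547 relative to ILCP), and the Rgs2 call against CLP was also lost on the deposited FPKM (0.99, adjusted p = 0.0506). In ILCP against CLP, Rgs1 (-0.19 ± 0.30, adjusted p = 0.843) and Rgs2 (-0.12 ± 0.33, adjusted p = 0.925) were not called.

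Rgs1 and Rgs2 lie on the same chromosome, with 238134 bases between them. Rgs1 CPM divided by Rgs2 CPM was 1.06 and 0.826 in the ILC1/3P libraries, 0.409 to 0.443 in the ILCP libraries and 0.383 to 0.522 in the CLP libraries. Both ILC1/3P ratios lay above all others, with no test made of them. The ratio of Rgs1 to S1pr1 was 101 and 107 in ILC1/3P, 1.48 to 6.42 in ILCP and 1.84 to 3.89 in CLP, which puts the opposite moves of these genes into 1 value per library.

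Gpr183 (ENSMUSG00000051212, chromosome 14, 121952331 to 121965193) encodes the oxysterol receptor EBI2, which positions B cells, T cells, dendritic cells and innate lymphoid cells in mouse lymphoid tissue. It had 180 and 313 CPM for ILC1/3P, 62.1, 61.4 and 75.5 for ILCP and 24.5, 9.93 and 29.2 for CLP. The populations formed 3 steps without overlap. Gpr183 rose 11.6-fold in ILC1/3P against CLP (3.53 ± 0.43, edgeR adjusted p = 0.000182), a call that held without any single library. It rose 3.11-fold in ILCP against CLP (1.64 ± 0.39, edgeR adjusted p = 0.0249), which was lost without CLP replicate 1 (1.75, adjusted p = 0.0643) or 2 (1.31, 0.0628) and without ILCP replicate 1 (1.69, 0.0608), 2 (1.67, 0.0579) or 3 (1.54, 0.0939). It rose 3.71-fold in ILC1/3P against ILCP (1.89 ± 0.41, edgeR adjusted p = 0.00975), a call that ended without the second ILC1/3P library (1.45, adjusted p = 0.0926), with library size as the only scaling (1.23, adjusted p = 0.0681) and on the deposited FPKM (1.21, adjusted p = 0.0937). The locus lies inside Ubac2, which is read from the opposite strand, but their exons do not overlap. Ubac2 had 32.4 to 70.9 CPM for ILC1/3P, 109 to 138 for ILCP and 168 to 233 for CLP, the reverse order to Gpr183.

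**Figure D2:**
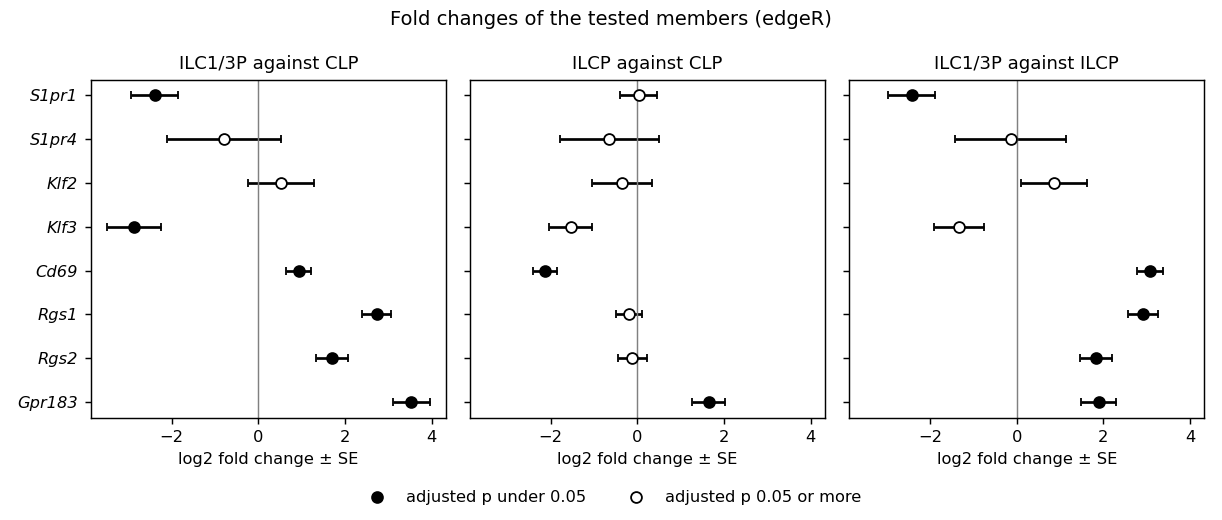
Log2 fold changes of the 8 tested genes in the 3 comparisons, with bars of 1 SE from the edgeR fit and filled points for an adjusted p under 0.05. In ILC1/3P against ILCP, Cd69 (3.07) and Rgs1 (2.92) lie farthest to the right and S1pr1 (-2.42) farthest to the left.

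Counted together, 4 of the 8 tested genes were higher and 2 lower in ILC1/3P than in CLP, where 11.8% of all 13436 tested genes were higher and 11.7% lower (23.5% in either direction). In ILC1/3P against ILCP, 4 were higher and 1 lower, against 8.06% and 8.25% of all tested genes (16.3% in either direction). In ILCP against CLP, 1 was higher and 1 lower, against 3.91% and 2.87% (6.79% in either direction). The genes, and the lists below, were chosen with earlier results of these data known, so such shares are descriptive and do not test enrichment. The libraries of the groups did not overlap for 6 of the 8 in ILC1/3P against CLP (52.4% of all tested genes), for 3 in ILCP against CLP (28.2%) and for 6 in ILC1/3P against ILCP (44.8%), so separation by itself is common here. The median log2 fold change of the 8 genes was 0.73 in ILC1/3P against CLP (-0.25 over all tested genes), 1.35 in ILC1/3P against ILCP (-0.23) and -0.27 in ILCP against CLP (0.01). Comparisons that share a population share its libraries and are not independent. The scaling matters for ILC1/3P: with library size as the only scaling the median of all genes moved to -0.93 against CLP and to -0.86 against ILCP, and the all-gene calls became 946 higher and 2807 lower against CLP (1592 and 1571 with TMM) and 474 and 2141 against ILCP (1083 and 1109 with TMM). Taken relative to the median of all genes, the TMM-scaled log2 fold changes in ILC1/3P against CLP were -2.14 for S1pr1, 2.98 for Rgs1, 3.78 for Gpr183 and 1.18 for Cd69.

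Levels of different genes were compared per kilobase of annotated exon. The deposited FPKM were not used for this, because they imply a length of 18084 bases for Rgs1, whose annotated exons cover 6947 bases, whereas the implied and annotated lengths of S1pr1 are both 3046 bases. In ILC1/3P the order was Cd69 (505 ± 33.5 CPM per kb, SD), Rgs2 (470 ± 182), Rgs1 (223 ± 49.5), Gpr183 (85.4 ± 32.6), Klf2 (7.50 ± 3.37), S1pr1 (4.89 ± 0.879), S1pr4 (2.13 ± 1.19) and Klf3 (0.509 ± 0.274), with libraries that overlapped between Cd69 and Rgs2 and between Klf2 and S1pr1. In ILCP, Rgs2 led (133 ± 54.6 CPM per kb), followed by Cd69 (60.0 ± 16.9), Rgs1 (29.5 ± 10.9), S1pr1 (26.1 ± 14.5) and Gpr183 (23.0 ± 2.74), the last 3 of which overlapped as neighbours. In CLP, Cd69 (265 ± 64.1 CPM per kb) and Rgs2 (144 ± 29.0) were again on top, and S1pr1 (25.6 ± 6.24) overlapped Rgs1 (33.7 ± 8.78). With these lengths S1pr1 stood within reach of Rgs1 in ILCP and CLP, and more than an order of magnitude below it in ILC1/3P. The 6947 annotated exon bases of Rgs1 span its whole locus, introns included. A shorter length would raise Rgs1 per kb in every population, so its distance from S1pr1 and its place in each order depend on the length used.

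**Figure D3:**
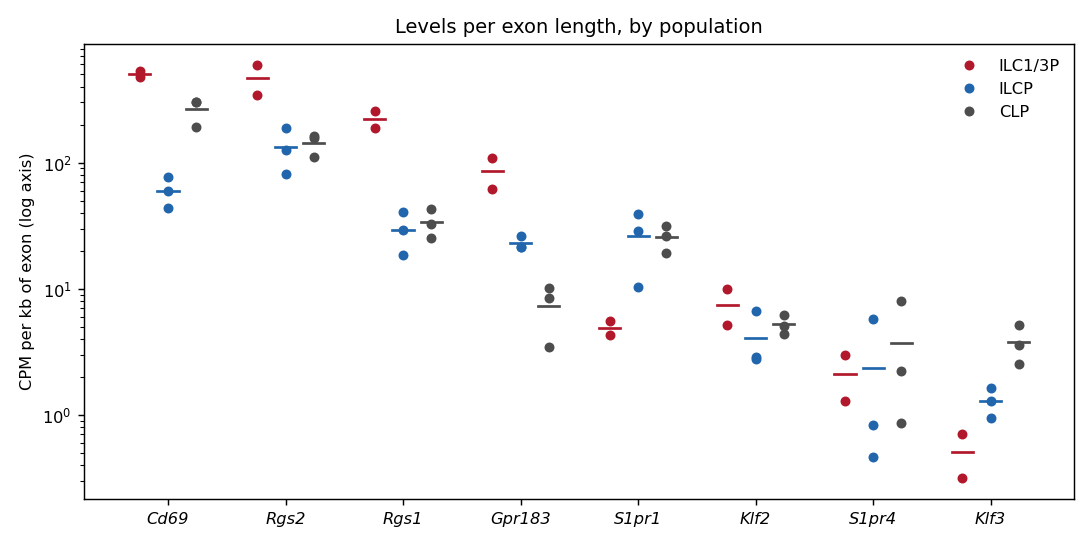
CPM per kilobase of exon for 8 genes (log axis), by population. Points are libraries and lines are means. Gpr183 steps down over ILC1/3P, ILCP and CLP (85.4, 23.0 and 7.35), and S1pr1 in ILC1/3P (4.89) lies below ILCP and CLP (26.1 and 25.6).

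Cd69, Rgs1 and Rgs2 also respond to cell handling, so a list of 17 immediate early genes was set beside them. Its summed level was 1417 to 1435 CPM for ILC1/3P, 2672 to 4374 for ILCP and 2839 to 3829 for CLP, lowest where Rgs1 and Rgs2 were highest. Of the 15 tested, 2 were higher (Fosb at 3.05 ± 0.51 and Dusp1 at 0.91 ± 0.28) and 5 lower in ILC1/3P than in CLP, among them Nr4a1 (-2.95 ± 0.35, edgeR adjusted p = 0.000161) and Zfp36 (-2.73 ± 0.41, adjusted p = 0.000662). Egr3 was at 0 in all 8 libraries, and Egr2 in both ILC1/3P libraries, in 2 of the 3 ILCP libraries and in 1 CLP library. The part of cell handling in the levels of Cd69, Rgs1 and Rgs2 was not tested.

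Other cell types also carry these genes. The 8 markers of mature natural killer cells summed to 1707 to 1762 CPM for ILC1/3P, 33.4 to 120 for ILCP and 7.37 to 21.5 for CLP, with Gzma and Ncr1 at the front, while Prf1 and Klra8 were at 0 in ILC1/3P. The 8 T cell markers summed to 5659 to 8089 CPM for ILC1/3P, 3048 to 4454 for ILCP and 333 to 690 for CLP, and 4 of the 8 were called higher in ILC1/3P against CLP (5 of 8 in ILCP against CLP). Trbc2 (3304 and 4396 CPM), Cd3g (2245 and 3463) and Cd3d (92.6 and 221) made up most of the sum in the ILC1/3P libraries, where Cd4 and Cd8b1 were at 0 and Cd3e at no more than 2.13 CPM. The 7 B cell markers summed to 612 to 1208 CPM for ILC1/3P, 432 to 698 for ILCP and 7079 to 9528 for CLP. Ighm (1077 and 443 CPM) and Cd79b (126 and 153) made up most of the sum in the ILC1/3P libraries, where Pax5 was at 0. The 9 myeloid markers summed to 48.9 to 84.7 CPM for ILC1/3P, 12.0 to 22.8 for ILCP and 689 to 921 for CLP, and the 7 macrophage markers to no more than 46.8 CPM in any library. The 7 dendritic cell markers summed to 111 to 161 CPM for ILC1/3P, 19.2 to 21.1 for ILCP and 602 to 989 for CLP, and 3 of them were called higher in ILC1/3P against ILCP, with Siglech and Flt3 at 0 in ILC1/3P. The 6 mast cell and basophil markers summed to 185 to 237 CPM for ILC1/3P, 481 to 627 for ILCP and 0 to 2.96 for CLP, nearly all of it Cpa3, with Fcer1a, Ms4a2, Mcpt8 and Prss34 at 0 in every library. The megakaryocyte, erythroid, hepatocyte and endothelial and stromal lists each summed to no more than 124 CPM in any library. The part of such cells in the values above was not tested.

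Among 98 further genes of migration and residency, listed by role, 75 were tested. In ILC1/3P against CLP 13 were higher and 11 lower (10 and 19 with library size only), in ILCP against CLP 10 and 5, and in ILC1/3P against ILCP 3 and 11 (1 and 15 with library size only), with medians of -0.06, 0.09 and -0.40. In either direction these are 32%, 20% and 18.7% of the 75, beside 23.5%, 6.79% and 16.3% of all tested genes, so the last share is near that of all genes. The counts of each smaller list below are to be read against the same shares of all tested genes. Exons of Ahr, Ccr9, Eomes, Foxo1, Gna13, Gnas, Klf7, S1pr3, Spns2, Xcl1 and Zeb2 overlap those of another gene in GENCODE M21. Reads in such overlaps cannot be assigned. The homing receptor genes are given first.

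Among the 10 homing receptor genes, ILC1/3P against CLP gave 3 higher and 4 lower, ILCP against CLP 4 and 1, and ILC1/3P against ILCP 1 and 6. Ccr9, a gut and thymus homing receptor, had 14.0 and 18.9 CPM for ILC1/3P, 91.0, 99.8 and 166 for ILCP and 153, 131 and 145 for CLP, and fell in ILC1/3P against CLP (-3.12 ± 0.37, edgeR adjusted p = 0.000161) and against ILCP (-2.86 ± 0.37, adjusted p = 0.000779). Ccr7, the lymph node homing receptor, followed with 1.97 and 2.84 CPM for ILC1/3P, 30.4, 7.19 and 50 for ILCP and 89.9, 76.9 and 52.8 for CLP (-4.93 ± 0.82 in ILC1/3P against CLP, adjusted p = 0.00125). Cxcr4, which holds progenitors at CXCL12 sources, had 1 count in all of ILC1/3P, 95 in ILCP and 164 in CLP, a CLP to ILC1/3P ratio of 80.5 (95% counting interval 14.2 to 3199). Leaving out ILC1/3P replicate 2 ended its call relative to CLP (adjusted p = 0.0564). Cxcr6, a liver residency receptor, had 3023 and 1423 CPM in ILC1/3P, 484, 603 and 821 CPM in ILCP and 0 in CLP, at least 16568-fold and 4454-fold higher than CLP. Its rise in ILC1/3P against ILCP (1.81 ± 0.35, edgeR adjusted p = 0.00825) ended without ILC1/3P replicate 1 (adjusted p = 0.0526), with library size as the only scaling (1.20, adjusted p = 0.053) and on the deposited FPKM (adjusted p = 0.0706). Without ILC1/3P replicate 1 its bound against CLP is 9962-fold. Selplg, the P-selectin ligand, averaged 239 ± 71.2 CPM for ILC1/3P, 745 ± 246 for ILCP and 320 ± 57.3 for CLP, and its fall in ILC1/3P against ILCP (-1.64 ± 0.33, adjusted p = 0.00682) ended without ILC1/3P replicate 2 (adjusted p = 0.0646). Itgb7, a gated chain, was higher in ILC1/3P and ILCP than CLP (3.69 ± 0.79 and 4.16 ± 0.77), which the sort can set. Cxcr4 above and Itgal were named after their values were seen. Itgal, the LFA-1 alpha chain, rose in ILC1/3P against CLP (2.52 ± 0.45, edgeR adjusted p = 0.00201) to 249 and 218 CPM, against 34.2, 23.9 and 63.9 CPM in CLP.

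**Figure D4:**
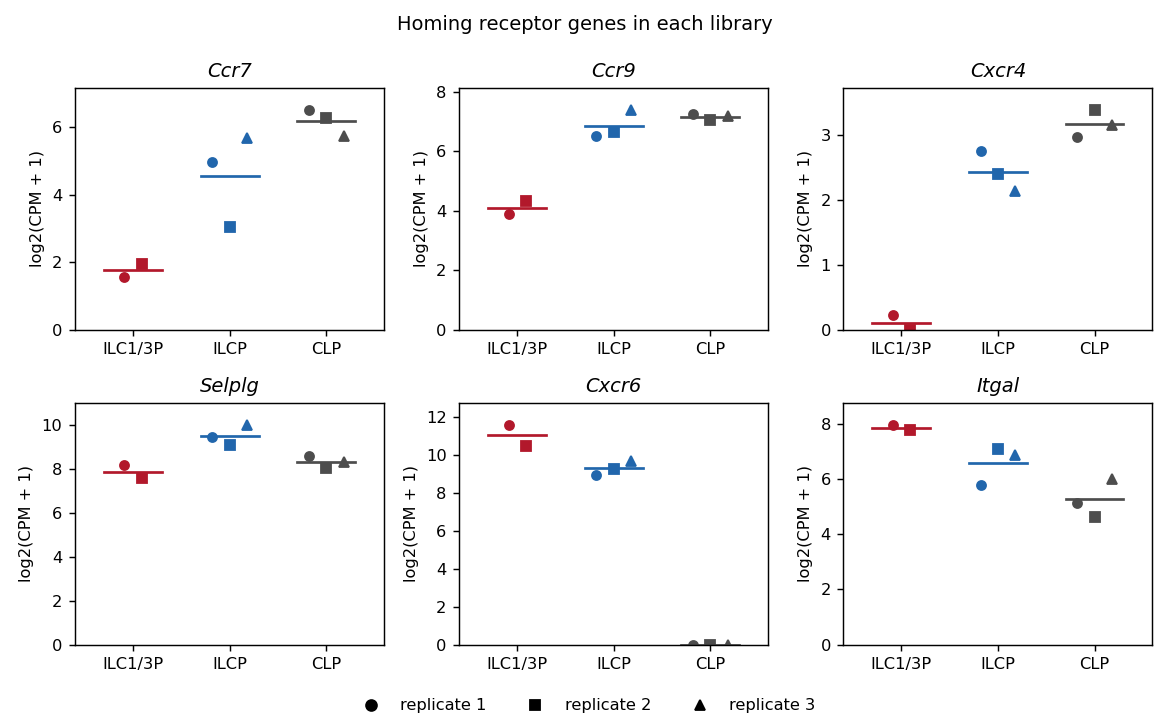
Levels of 6 homing receptor genes in each library, as log2(CPM + 1) on axes from 0. Points are libraries (shape gives the replicate number) and lines are means. Ccr7, Ccr9 and Cxcr4 are lowest in both ILC1/3P libraries, and Cxcr6 is at 0 in all CLP libraries.

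Upstream of Klf2, Foxo1 and Mef2c were lower outside CLP. Of 8 tested genes of the Foxo and Erk5 routes, 0 were higher (also by DESeq2 and at an unadjusted p under 0.05) and 2 lower in both ILC1/3P and ILCP against CLP by edgeR, and 1 was higher in ILC1/3P against ILCP. Mef2c, a MADS-box factor of this route and of lymphoid progenitors, averaged 3.73 ± 4.27 CPM for ILC1/3P, 8.38 ± 0.446 for ILCP and 271 ± 93.6 for CLP (SD; -6.11 ± 0.70 and -5.01 ± 0.54 against CLP, SE, edgeR adjusted p = 0.000131 and 0.000141). Foxo1, which activates Klf2 in mouse T cells, averaged 41.8 ± 25.8 CPM for ILC1/3P, 32.2 ± 9.20 for ILCP and 148 ± 37.7 for CLP. It fell in ILCP (-2.20 ± 0.40, edgeR adjusted p = 0.0054) and in ILC1/3P (-1.83 ± 0.46, adjusted p = 0.0132), but the second call ended when CLP replicate 3 or ILC1/3P replicate 1 was left out (highest adjusted p = 0.0735). Of 8 other Klf genes tested, edgeR called Klf7 higher in ILC1/3P against CLP (2.85 ± 0.63, adjusted p = 0.00684), and DESeq2 also called Klf13 (1.08, adjusted p = 0.0198, and 0.063 by edgeR) and Klf6 (1.06, adjusted p = 0.0424, and 0.0855 by edgeR). By edgeR 0 were called in ILCP against CLP, where Klf6 (1.19 ± 0.35, adjusted p = 0.0715) and Klf10 (1.17, adjusted p = 0.0752) had the smallest p. At an unadjusted p under 0.05, 3 were higher and 1 lower there, and DESeq2 called 3 higher. In ILC1/3P against ILCP, Klf10 was lower (-1.68 ± 0.41, adjusted p = 0.0177), a call lost without 4 of the libraries in turn (highest adjusted p = 0.097). Foxo3, the 1 gene of the route above that was higher in ILC1/3P than in ILCP (1.95 ± 0.57, adjusted p = 0.0386), was lost without 5 (highest adjusted p = 0.21), with library size as the only scaling (1.34, adjusted p = 0.133) and on the deposited FPKM (1.20, adjusted p = 0.187).

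Of 6 other RGS genes tested, edgeR called 0 higher and 1 lower in each comparison. At an unadjusted p under 0.05, 0 were higher in ILC1/3P against CLP or ILCP, and 1 in ILCP against CLP, which DESeq2 called (Rgs3, at 2.28 in edgeR, adjusted p = 0.0718). Rgs10 fell in ILC1/3P (-4.43 ± 0.57, edgeR adjusted p = 0.000244) and in ILCP (-3.78 ± 0.46, adjusted p = 0.000314) against CLP, with means of 4.47 ± 2.98, 7.17 ± 1.44 and 98.5 ± 25.8 CPM (SD) in ILC1/3P, ILCP and CLP. Rgs19 fell in ILC1/3P against ILCP (-1.30 ± 0.37, edgeR adjusted p = 0.033), a call lost without 4 of the libraries in turn (highest adjusted p = 0.187). Rgs18, named after its values were seen because it is abundant, averaged 395 ± 208, 210 ± 91.1 and 292 ± 104 CPM (SD) in ILC1/3P, ILCP and CLP and was not called (the smallest edgeR adjusted p of the 3 comparisons was 0.182). Among 23 G protein partners, ILC1/3P against CLP gave 3 higher and 2 lower, ILCP against CLP 3 and 0, and ILC1/3P against ILCP 0 and 2 by edgeR. At an unadjusted p under 0.05, 2 were lower in ILCP against CLP and 2 higher in ILC1/3P against ILCP, where DESeq2 called 1 each. Pik3cg, the lipid kinase of chemokine receptors, fell in ILC1/3P against CLP (-1.85 ± 0.40, edgeR adjusted p = 0.0057), and Gnb1, a G protein beta subunit, rose in ILCP against CLP (1.34 ± 0.24, adjusted p = 0.00458). Gnai3, an inhibitory alpha subunit, fell in ILC1/3P against ILCP (-1.77 ± 0.35, adjusted p = 0.0059), a call lost without ILC1/3P replicate 2 (adjusted p = 0.0516). The calls of Gnas (1.03 ± 0.24, adjusted p = 0.00913) and Gna13 (1.20 ± 0.30, adjusted p = 0.0131), higher in ILC1/3P than CLP, ended without 1 ILC1/3P library (adjusted p = 0.0587 and 0.126). They also ended with library size as the only scaling (0.35, adjusted p = 0.323, and 0.51, adjusted p = 0.218) and on the deposited FPKM (0.35, adjusted p = 0.416, and 0.49, adjusted p = 0.256). Gnai2, the main G protein of these receptors and also named after its values were seen, averaged 35.9 ± 7.45 CPM for ILC1/3P, 47.0 ± 6.43 for ILCP and 44.8 ± 14.5 for CLP and was not called.

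Enzymes and transporters of S1P gave 0 calls in every comparison by edgeR and by DESeq2, and 0 at an unadjusted p under 0.05. Of the 4 tested, Sgpl1, the lyase that degrades S1P, averaged 11.2 ± 8.54 CPM for ILC1/3P, 11.9 ± 3.06 for ILCP and 24.6 ± 11.7 for CLP. Spns2, an S1P exporter, averaged 3.05 ± 3.38 CPM for ILC1/3P, 5.88 ± 7.00 for ILCP and 12.6 ± 2.38 for CLP, with adjusted p = 0.26 for ILC1/3P against CLP and 0.678 for ILCP against CLP. Of the 2 tested oxysterol enzymes, Cyp27a1, a cholesterol hydroxylase, had no counts in ILC1/3P or ILCP and 166 in CLP, at least 27.2-fold and 56.3-fold lower by a floor of 3 counts over the group. Its calls (adjusted p = 0.0341 and 0.0321) were lost without any 1 library of either group compared (highest adjusted p = 0.114 and 0.143).

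Several residency genes exceeded their CLP level in both innate populations. Among 9 tested, ILC1/3P against CLP gave 4 higher and 1 lower, ILCP against CLP 3 and 0, and ILC1/3P against ILCP 1 and 1. Ccr8, a chemokine receptor of skin and tissue lymphocytes, was at 0 counts in CLP, which puts ILC1/3P at least 2177-fold higher and ILCP at least 1700-fold higher. Ahr, a ligand-activated factor needed by tissue lymphocytes, averaged 74.5 ± 0.242 CPM for ILC1/3P, 70.5 ± 17.9 for ILCP and 5.80 ± 4.26 for CLP and rose in both (3.70 ± 0.66 and 3.62 ± 0.63, edgeR adjusted p = 0.00192 and 0.00388). Itgae, the CD103 chain, was likewise absent from the CLP counts, with 29.8 and 3.31 CPM in the ILC1/3P libraries and 21, 12.6 and 4.79 CPM in the ILCP libraries. The bound against CLP was 132-fold for ILC1/3P, but 23.2-fold without replicate 1 and 208-fold without replicate 2, and 89.4-fold for ILCP. Xcl1, a chemokine of innate lymphocytes, had 1018 counts in ILC1/3P, 0 in ILCP and 2 in CLP, an ILC1/3P to CLP ratio of 1037 (95% counting interval 286 to 8574). The ILC1/3P libraries differed widely, at 22.2 and 209 CPM, and the ratio was 2192 without replicate 1 and 233 without replicate 2. Nr4a1, an immediate early nuclear receptor also counted above, was the gene that fell (34.0 ± 11.8 CPM in ILC1/3P, 202 ± 41.6 in ILCP and 262 ± 59.4 in CLP). Of the factors known to act upstream of S1pr5 in mouse natural killer cells, Tbx21 (5.37 ± 1.53, adjusted p = 0.0252) and Eomes (4.28 and 15.8 CPM in ILC1/3P, 0 in CLP, adjusted p = 0.0246) rose in ILC1/3P against CLP, calls that were lost without single libraries (highest adjusted p = 0.09 and 0.104), while Zeb2 averaged 3.13 ± 4.42 CPM for ILC1/3P, 4.26 ± 6.79 for ILCP and 89.5 ± 33.8 for CLP (adjusted p = 0.0595 and 0.0844 against CLP, and 0.00798 and 0.0152 on the deposited FPKM with limma).

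To describe each pattern by its nearest others, the tested genes were ranked by Pearson's r of log2 CPM over the 8 libraries, among named genes with a mean of at least 20 CPM. About 5737 genes compete over 8 libraries of 3 populations, and r describes these libraries only. Nearest to S1pr1 were Vps41 (r = 0.985) and Cfap97 (0.983), and nearest to Klf3 were Fam134b (0.982) and Hibadh (0.979). Nearest to Cd69 were Serpinb1a (0.987) and Rtp4 (0.972), an interferon-induced gene with 358 ± 70.5 CPM for ILC1/3P, 37.9 ± 6.43 for ILCP and 179 ± 55.2 for CLP. Plp2 (0.995) and Tyms (0.993), the thymidylate synthase of dividing cells, came nearest to Rgs1, and Tyms had 654 ± 77.2 CPM for ILC1/3P, 80.4 ± 19.2 for ILCP and 83.5 ± 18.4 for CLP. Polr2l (0.995) and Krtcap2 (0.982) came nearest to Rgs2. For Gpr183 these were Cd2 (0.988), an adhesion receptor with 270 ± 113 CPM for ILC1/3P, 42.4 ± 11.6 for ILCP and 5.17 ± 3.07 for CLP, and Arl16 (0.985). Exons of Cfap97, Hibadh, Krtcap2, Plp2, Rtp4 and Srsf2 overlap those of another gene. Klf2 and S1pr4 had lower values, with Srsf2 (0.893) and Naa50 (0.882) nearest to Klf2 and Arl15 (0.861) and St6galnac4 (0.845) nearest to S1pr4.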

How the data were processed

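RNA of 8 libraries was measured by bulk RNA-seq. The cells went straight into lysis buffer, and PCR-amplified SMARTer cDNA was sequenced, per the labels' protocols. All libraries carry the same batch label. The deposited values are raw counts per gene, whole numbers, beside FPKM that the authors computed. Coordinates are on mm10 (submitters' processing notes). Aligner, counter, annotation and strand setting: not given in the sources used here. Reads carry no described molecular identifiers. Intervals and floors therefore reflect counting error only. Titles gave each library its group and replicate number.

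The count test was edgeR 4.0.16 under R 4.3.3 (filterByExpr, leaving 13436 genes, TMM scaling, robust quasi-likelihood fit of all 8 libraries with 1 mean per group, two-sided). Adjusted p-values are Benjamini-Hochberg values over all tested genes, called under 0.05, and standard errors were derived from the F statistic. CPM are given as mean ± SD over libraries. Bounds use a floor of 3 counts pooled over a group. Exon lengths and overlaps came from GENCODE M21, and promoters from RefSeq. Alternatives were library size only, DESeq2 1.42.0, DESeq2 size factors, no low-count filter, a filter of at least 1 CPM in 2 libraries, a replicate block, fits of only the groups compared, limma 3.58.1 on log2(FPKM + 0.1), and leaving out each library. The programs were tested on simulated data. The 9 genes and all lists were chosen with earlier results of these data known. Genes were named by rule: all 9, for each list the called genes with the smallest p (up to 4 per comparison, or 2 uncalled ones, given in part), and the 2 genes nearest to each pattern. The counts of the homing receptor list include a gene that is not reported here.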

Additional observations from a re-analysis of the deposited data

How the results depend on the processing

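Depth limits the scarce genes: S1pr5 could not be tested, Klf2 rests on 37 to 111 counts per library and S1pr4 on 8 to 168. DESeq2 called 1739 genes, and 25 migration and residency genes, in ILCP against CLP, where edgeR called 912 and 15. With single libraries left out, calls over all genes ranged from 587 to 1114 in ILCP against CLP and from 1333 to 2161 in ILC1/3P against ILCP. Among the 9 genes they ranged from 1 to 2 and from 3 to 5 in the same comparisons, and among the migration and residency genes from 7 to 13 in ILC1/3P against ILCP.

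Some uncalled differences changed sign, and the cause was not tested. Klf2 in ILC1/3P against CLP had -0.12 with library size only and -0.21 on FPKM, and -0.03 to 0.92 without single libraries. S1pr1 in ILCP against CLP had -0.01 with library size only, -0.18 on FPKM and -0.09 with the replicate block, and -0.38 to 0.38 without single libraries. Leaving out single libraries moved S1pr4 between -1.52 and 0.46 in ILC1/3P against CLP, between -2.50 and 0.60 in ILCP against CLP and between -0.87 and 1.70 in ILC1/3P against ILCP, where the replicate block gave 0.71. It moved Rgs1 between -0.49 and 0.05 and Rgs2 between -0.47 and 0.14 in ILCP against CLP.

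Deviations from the group means correlated at -0.033 to 0.087 between same-numbered libraries and at -0.093 to 0.033 between different-numbered ones. With so few libraries per group, these values cannot settle whether the numbers pair them. With the replicate block edgeR called 2624 genes in ILC1/3P against CLP (3163 without it), 741 in ILCP against CLP (912) and 1753 in ILC1/3P against ILCP (2192), and 6, 2 and 5 of the 9 genes, as many as without it. Among the migration and residency genes it called 22, 15 and 10 in these comparisons (24, 15 and 14 without it). Some calls of the genes named above were lost with the block. In ILC1/3P against CLP these were Eomes (edgeR adjusted p = 0.0678), Cyp27a1 (0.13) and Gnb1 (0.0545). Cyp27a1 (0.135) was lost in ILCP against CLP. Cxcr4 (0.0882), Foxo3 (0.107) and Rgs19 (0.0813) were lost in ILC1/3P against ILCP. Zeb2 was called with the block in ILC1/3P and in ILCP against CLP (0.022 and 0.0336).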
